A study of Mus musculus with 6 samples.

Results

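The 10 genes described here encode the enzymes that turn cholesterol into bile acids and join them to taurine or glycine. They were chosen by gene symbol. Cyp7a1, Hsd3b7, Cyp8b1 and Akr1d1 stand for the classic pathway and the ring steps shared by both routes. Cyp27a1 and Cyp7b1 stand for the alternative pathway, and Slc27a5, Amacr, Acox2 and Baat for side-chain shortening and conjugation. All 10 were found among the 52459 genes of the count table, and all 10 passed the filter on low counts that left 17032 genes for the test. RNA came from the livers of 6 male Alb-Cre/Cas9 F1 mice on a C57BL6J background, 8 months old, in which Cre driven by the albumin promoter turned on Cas9 in hepatocytes. At 4 to 5 weeks of age, 3 mice received an AAV8 vector with a control guide RNA (sgCtrl, mice 5.1, 7.1 and 7.2) and 3 received AAV8 with a guide RNA against Prdx2 (sgPrdx2, mice 1.1, 1.3 and 3.2), the gene of a peroxide-reducing enzyme. Both groups then received the liver carcinogen diethylnitrosamine (DEN, 100 mg/kg) 3 weeks after the vector and, 1 week after DEN, the choline-deficient high-fat diet CDA-HFD for 6 months. The comparison is thus between guide RNAs within the diseased liver, with no healthy group. AAV8 does not reach every hepatocyte, and the study's staining of sgPrdx2 livers showed islets of cells that kept the protein. The labels name the tissue as liver and do not say whether a piece held tumor.

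Bile acid synthesis is the main route by which the liver removes cholesterol. In the classic pathway, CYP7A1 adds the first hydroxyl group to cholesterol, HSD3B7 and AKR1D1 rework the sterol ring, and CYP8B1 directs the product to cholic acid. In the alternative pathway, CYP27A1 oxidizes the side chain first and CYP7B1 hydroxylates the resulting oxysterol. Both routes end in shortening of the side chain, in which the peroxisomal enzymes AMACR and ACOX2 take part, and in conjugation, in which SLC27A5 activates the bile acid with coenzyme A and BAAT joins it to an amino acid. Cyp7a1 and Cyp8b1 are switched off through the nuclear receptors FXR and SHP and the FGF receptor FGFR4 when bile acids are abundant.

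Total counts per liver ranged from 37462102 to 56865293, and all pairs of livers differed by more than sampling noise. Values below are CPM, counts scaled to a common library total with edgeR's TMM factors, and log2 fold changes are sgPrdx2 over sgCtrl with a standard error (SE). Genes were called at an adjusted p under 0.05 in edgeR's quasi-likelihood test over all 17032 genes. Prdx2 RNA averaged 119 ± 11.6 CPM (SD, n = 3) with the control guide and 120 ± 26.1 CPM (SD, n = 3) with the Prdx2 guide (edgeR adjusted p = 0.983), so that the groups could not be checked from the level of the targeted RNA, which small Cas9 deletions need not lower. Hepatocyte markers were present at high level in every liver. Their summed level, over 11 of 12 listed genes, was 91328 to 98519 CPM in sgCtrl and 154324 to 210552 CPM in sgPrdx2 livers, 1.92-fold higher (p = 0.1 in a two-sided exact permutation test, the lowest p possible with 3 livers per group). All 11 had a log2 fold change above 0, and Alb, Ttr, Apoa1, Apoh and Fgb were called higher. The summed markers of cholangiocytes, macrophages, lymphocytes and stellate cells were at 0.742, 0.763, 0.622 and 0.683 of the sgCtrl level (exact permutation p = 0.1 each) and those of endothelial cells at 0.827 (exact permutation p = 0.4), with Cd8a and Pecam1 called lower. More hepatocytes in a piece of liver and more RNA of these genes per hepatocyte cannot be told apart in bulk RNA. The part of this shift in the values below was not tested beyond the scaling to hepatocyte markers given near the end.

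Slc27a5, a bile acid CoA ligase, and Amacr, which acts on the side chain, rose in sgPrdx2 livers, 2.82-fold and 1.77-fold. Cyp8b1, Akr1d1, Cyp27a1 and Baat had means 2.36, 2.03, 1.75 and 1.64 times those of sgCtrl and no overlap between the groups, but missed the threshold. Cyp7a1, Cyp7b1, Hsd3b7 and Acox2 overlapped between the groups. In counts, 2 of the 10 genes were called higher, where 1.79% of all genes tested were called higher, and 0 were called lower, where 1.54% of all genes were. At an unadjusted p under 0.05, 0 of the 10 were lower, against 11.9% of all genes, and 6 were higher, against 13% of all genes. The same 6 had their 3 highest values in the 3 sgPrdx2 livers, an order seen in 16.7% of all genes, and 0 had their 3 lowest values there, an order seen in 17.5% of all genes. By DESeq2 these 6 passed an adjusted p of 0.05, against 7.89% of all genes it called higher, and 0 were lower, against 5.9%. The median log2 fold change of the 10 genes was 0.76 (range -0.23 to 1.49), and that of all genes tested was -0.02. By step, the median was 0.71 over the 4 genes of the classic pathway and the shared ring steps. It was 0.48 over the 2 alternative genes and 0.77 over the 4 side-chain and conjugation genes. The ring genes Hsd3b7 and Akr1d1 serve both routes, and the 2 alternative genes were far apart, Cyp27a1 at 0.81 and Cyp7b1 at 0.16.

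**Figure D1:**
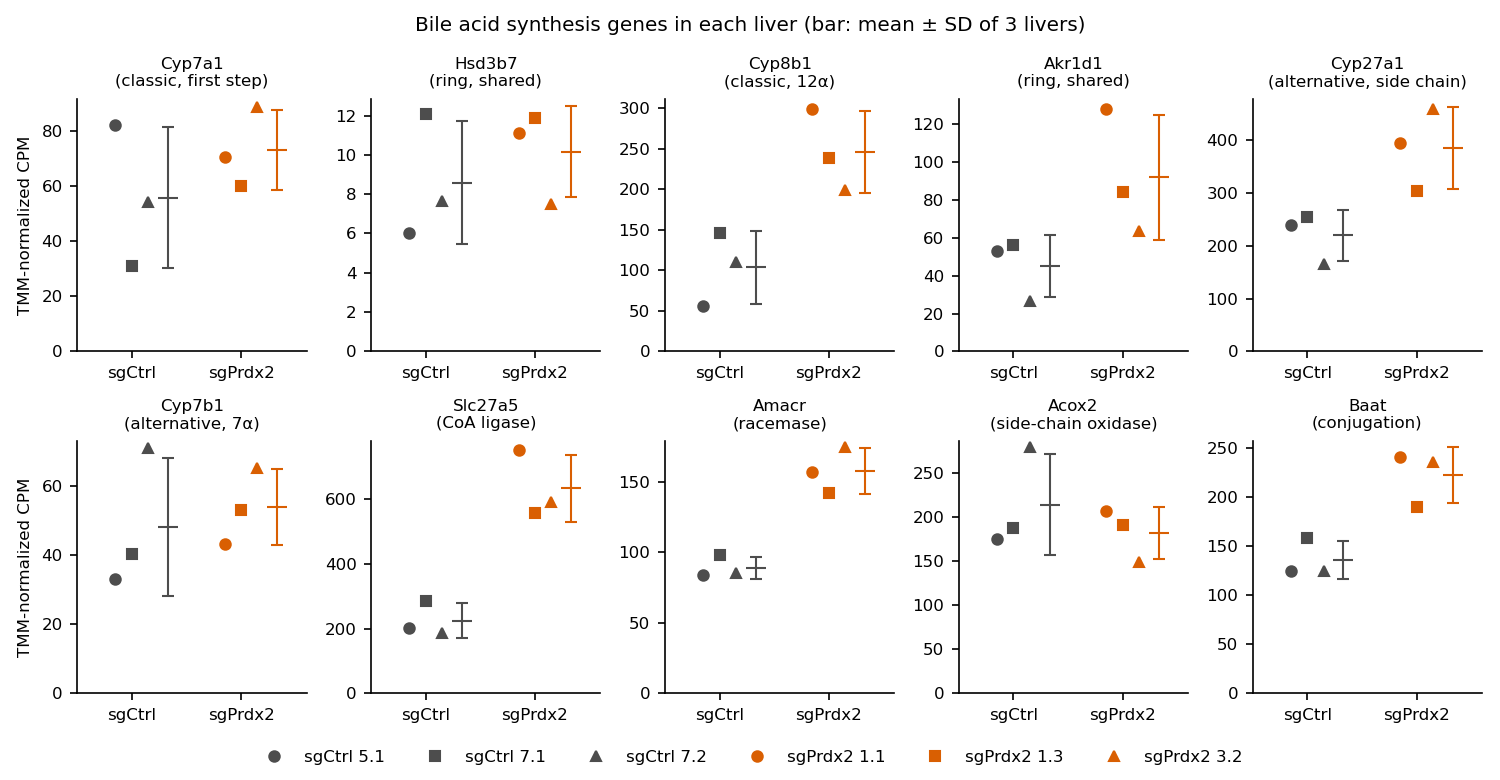
Level of the 10 genes in each liver, in TMM-normalized CPM, with 1 panel per gene ordered by pathway step; points are single livers and bars the mean ± SD of the 3 livers of a group. In Cyp8b1, Akr1d1, Cyp27a1, Slc27a5, Amacr and Baat the sgPrdx2 points all sit above the sgCtrl points, and in the other 4 panels they overlap.

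The 250 bases before the transcription start are shown for the 3 genes without overlap between groups that had an entry in the promoter table (RefSeq, build GRCm38.p6). They were searched for motifs of known regulators of the pathway, and sites elsewhere were not searched. Of the 10 genes, Cyp8b1, Cyp27a1, Hsd3b7, Akr1d1 and Acox2 had an entry, and Cyp7a1, Cyp7b1, Slc27a5, Amacr and Baat did not. The sequences run 5′ to 3′ on the strand of the gene, and capitals mark matches to the motifs searched. Cyp8b1 lies on the minus strand (chr9:121916306-121916555), and Akr1d1 (chr6:37529923-37530172) and Cyp27a1 (chr1:74713285-74713534) on the plus strand.
Cyp8b1: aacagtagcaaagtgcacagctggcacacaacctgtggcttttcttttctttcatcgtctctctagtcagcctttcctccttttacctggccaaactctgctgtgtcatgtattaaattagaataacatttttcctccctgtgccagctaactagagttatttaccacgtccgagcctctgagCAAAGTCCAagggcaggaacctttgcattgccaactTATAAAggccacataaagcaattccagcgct
Akr1d1: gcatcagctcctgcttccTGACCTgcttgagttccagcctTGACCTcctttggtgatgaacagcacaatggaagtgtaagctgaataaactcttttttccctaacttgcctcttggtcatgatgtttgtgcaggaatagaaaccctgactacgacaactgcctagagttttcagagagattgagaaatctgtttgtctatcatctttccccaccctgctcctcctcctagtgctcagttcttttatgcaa
Cyp27a1: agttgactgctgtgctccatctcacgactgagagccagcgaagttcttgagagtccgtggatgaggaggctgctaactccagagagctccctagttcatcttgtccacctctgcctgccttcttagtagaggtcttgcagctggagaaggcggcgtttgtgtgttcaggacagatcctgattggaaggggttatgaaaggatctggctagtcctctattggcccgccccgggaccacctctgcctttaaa
Both strands were searched for TATAAA, for AGGTCA (the core letters bound by many nuclear receptors), for CAAGGTCA (bound by LRH-1), for direct and inverted repeats of AGGTCA with 1 spacer base, for CAAAGTCCA (HNF4A) and for GTTAAT (HNF1). CAAGGTCA and both repeats contain AGGTCA. The Cyp8b1 stretch held CAAAGTCCA from 67 to 59 bases before the start, a motif found in 0.384% of all 32851 promoter stretches of the same length, and TATAAA from 31 to 26 bases before the start (12.4% of all). The Akr1d1 stretch held AGGTCA on the other strand, written TGACCT here, from 232 to 227 and from 210 to 205 bases before the start (14.0% of all). The Cyp27a1 stretch held none of these letters. CAAGGTCA (1.33% of all), GTTAAT (6.43%), the direct repeat (0.033%) and the inverted repeat (0.006%) were in none of the 6 stretches of the 5 genes with an entry. These matches describe the letters only, and binding was not measured.

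Of the classic pathway, Cyp7a1 encodes the rate-limiting enzyme that hydroxylates cholesterol. Cyp7a1 (ENSMUSG00000028240) is a gene of 6 exon blocks at chr4:6265612-6275633 on the minus strand (GRCm38, GENCODE annotation). Its level was 82.1, 30.9 and 54.2 CPM in sgCtrl livers 5.1, 7.1 and 7.2 and 70.5, 60.1 and 88.6 CPM in sgPrdx2 livers 1.1, 1.3 and 3.2. The groups overlapped, with sgCtrl liver 5.1 above 2 of the 3 sgPrdx2 livers and sgCtrl liver 7.1 the lowest of all 6. The means were 55.8 ± 25.6 CPM (SD, n = 3) and 73.1 ± 14.4 CPM (SD, n = 3), a log2 fold change of 0.39 (SE 0.33, edgeR adjusted p = 0.484), smaller than the spread between livers. These values rest on 1390 to 3595 counts per liver, so that counting error is small beside that spread.

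Cyp8b1, whose product sets the share of cholic acid among bile acids, had the second highest log2 fold change of the 10 genes, after Slc27a5. The single exon of Cyp8b1 (ENSMUSG00000050445) lies at chr9:121914356-121916305 on the minus strand, next to the stretch with the HNF4A letters shown above. Its level was 56.2, 146 and 110 CPM in sgCtrl livers 5.1, 7.1 and 7.2 and 299, 238 and 199 CPM in sgPrdx2 livers 1.1, 1.3 and 3.2. All sgPrdx2 livers were above all sgCtrl livers, but the sgCtrl livers were spread widely among themselves. The log2 fold change was 1.24 (SE 0.33), with an adjusted p of 0.0771 in edgeR and 0.00236 in DESeq2.

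Liver sgCtrl 5.1 held both the highest Cyp7a1 and the lowest Cyp8b1 level of its group. It also stood apart in some clock genes. Arntl, a core clock gene, was at 2.40 CPM there and at 13.0 and 11.3 CPM in livers 7.1 and 7.2, and Per1 was at 72.4 against 17 and 27.3 CPM. Cyp7a1 is known to follow the daily clock, and the labels do not give the hour at which each liver was taken. Of 11 clock genes, 0 were called by edgeR. At an unadjusted edgeR p under 0.05, 3 were higher (13% of all genes), and DESeq2 called 1 higher (7.89% of all genes). Dbp, an output gene of the clock, was at 87.3 to 174 CPM in sgCtrl and 192 to 392 CPM in sgPrdx2 livers (log2 fold change 1.23, edgeR adjusted p = 0.082). The part of the clock in the levels of Cyp7a1 and Cyp8b1 was not tested. Without liver 5.1, the log2 fold change of Cyp7a1 was 0.78 (edgeR adjusted p = 0.225) and that of Cyp8b1 was 0.94 (edgeR adjusted p = 0.131). Without liver 7.1, which had the lowest Cyp7a1 level, they were 0.10 (edgeR adjusted p = 0.856) and 1.56 (edgeR adjusted p = 0.0608).

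Akr1d1, the reductase that bends the sterol ring into the shape of a bile acid, was at 53.0, 56.3 and 26.6 CPM in sgCtrl livers 5.1, 7.1 and 7.2 and at 128, 84.3 and 63.5 CPM in sgPrdx2 livers 1.1, 1.3 and 3.2. The lowest sgPrdx2 liver was above the highest sgCtrl liver by less than the range within either group. Its log2 fold change was 1.02 (SE 0.34), with an adjusted p of 0.123 in edgeR and 0.0201 in DESeq2. Akr1d1 (ENSMUSG00000038641) spans chr6:37530173-37568815 on the plus strand.

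Hsd3b7, the dehydrogenase that acts just after the hydroxylation by CYP7A1 or CYP7B1, was the lowest of the 10 genes, at 6.03 to 12.1 CPM in sgCtrl and 7.52 to 11.9 CPM in sgPrdx2 livers. The groups overlapped almost wholly (log2 fold change 0.25, SE 0.28, edgeR adjusted p = 0.611). Its level is uncertain. Of its exon bases at chr7:127800604-127803802, 62.4% are shared with 9430064I24Rik on the opposite strand and 62.0% with Gm49388 on the same strand, 99.2% in all, and how such reads were assigned is not given in the sources used here. 9430064I24Rik had 2 to 9 counts per liver, and Gm49388 was not among the genes of the count table. The other 9 genes share no exon bases with another gene.

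In the alternative pathway, Cyp27a1, the mitochondrial enzyme that oxidizes the sterol side chain and serves the classic route as well, was at 239, 256 and 165 CPM in sgCtrl livers 5.1, 7.1 and 7.2 and at 395, 303 and 459 CPM in sgPrdx2 livers 1.1, 1.3 and 3.2. Again the groups did not overlap. The log2 fold change was 0.81 (SE 0.22), with an adjusted p of 0.0814 in edgeR and 0.00671 in DESeq2. Cyp27a1 (ENSMUSG00000026170) spans chr1:74713574-74737892 on the plus strand.

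Cyp7b1, the oxysterol hydroxylase that follows CYP27A1, behaved otherwise. It was at 33.3, 40.4 and 71.0 CPM in sgCtrl livers 5.1, 7.1 and 7.2 and at 43.4, 53.2 and 65.3 CPM in sgPrdx2 livers 1.1, 1.3 and 3.2, with the highest and the lowest of all 6 values both in sgCtrl. The log2 fold change was 0.16 (SE 0.29, edgeR adjusted p = 0.753), and it was -0.05 without sgCtrl liver 5.1. Cyp7a1 and Cyp7b1, whose enzymes hydroxylate the same ring position in the classic and the alternative route, thus differed by less than the spread between livers, whereas the groups separated for Cyp8b1, Akr1d1 and Cyp27a1. Whether these genes differ from Cyp7a1 in their response was not tested.

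Among the side-chain and conjugation genes, Slc27a5 encodes the bile acid CoA ligase BACS, also known as the fatty acid transporter FATP5. Its level was 203, 285 and 186 CPM in sgCtrl livers 5.1, 7.1 and 7.2 and 750, 556 and 590 CPM in sgPrdx2 livers 1.1, 1.3 and 3.2. Every sgPrdx2 liver was far above every sgCtrl liver. The means were 225 ± 52.9 CPM (SD, n = 3) and 632 ± 104 CPM (SD, n = 3), a log2 fold change of 1.49 (SE 0.21, edgeR adjusted p = 0.0342), larger than the spread between livers. Slc27a5 (ENSMUSG00000030382) spans chr7:12988346-12998192 on the minus strand in 10 exon blocks.

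Amacr encodes the racemase that turns the side chain into the form that peroxisomal oxidation accepts. It was at 83.7, 98.2 and 85.5 CPM in sgCtrl livers 5.1, 7.1 and 7.2 and at 157, 142 and 174 CPM in sgPrdx2 livers 1.1, 1.3 and 3.2, with little spread within either group. The means were 89.1 ± 7.87 CPM (SD, n = 3) and 158 ± 16.3 CPM (SD, n = 3), a log2 fold change of 0.82 (SE 0.14, edgeR adjusted p = 0.0392). Amacr (ENSMUSG00000022244) lies at chr15:10981756-10996626 on the plus strand. The calls of Slc27a5 and Amacr depended on which livers entered the fit. Both held without sgCtrl 7.1 and without sgPrdx2 3.2, and both were lost without sgCtrl 5.1 (edgeR adjusted p of 0.118 and 0.121), sgCtrl 7.2 (0.143 and 0.156), sgPrdx2 1.1 (0.142 and 0.147) or sgPrdx2 1.3 (0.0672 and 0.074). In these 4 fits 0 genes of the whole table were called, and the log2 fold changes stayed between 1.35 and 1.597 for Slc27a5 and between 0.78 and 0.91 for Amacr.

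Baat encodes the acyltransferase that joins the activated bile acid to taurine or glycine. It was at 125, 158 and 124 CPM in sgCtrl livers 5.1, 7.1 and 7.2 and at 241, 189 and 236 CPM in sgPrdx2 livers 1.1, 1.3 and 3.2, with no overlap. The log2 fold change was 0.71 (SE 0.16), with an adjusted p of 0.0575 in edgeR and 0.00149 in DESeq2. Acox2, the peroxisomal oxidase of branched side chains, was the only one of the 10 genes with a log2 fold change under 0. It was at 175, 188 and 280 CPM in sgCtrl livers 5.1, 7.1 and 7.2 and at 207, 191 and 149 CPM in sgPrdx2 livers 1.1, 1.3 and 3.2. The groups overlapped and liver sgCtrl 7.2 held the highest value (log2 fold change -0.23, SE 0.22, edgeR adjusted p = 0.531). Without that liver it was 0.01.

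Ratios of genes within a liver do not depend on the scaling of the library, and are given as a description without a test. The ratio of Slc27a5 to Baat, the activating and the joining enzyme of conjugation, was 1.62, 1.80 and 1.497 in sgCtrl livers 5.1, 7.1 and 7.2 and 3.11, 2.94 and 2.50 in sgPrdx2 livers 1.1, 1.3 and 3.2. The ratio of Amacr to Acox2, successive enzymes of side-chain oxidation, was 0.477, 0.523 and 0.305 in sgCtrl and 0.758, 0.741 and 1.17 in sgPrdx2 livers. Neither ratio overlapped between the groups, so that Slc27a5 was higher relative to Baat, and Amacr relative to Acox2, in each sgPrdx2 liver. Both ratios set a gene called higher by edgeR over one that was not called. The ratio of Cyp8b1 to Cyp7a1 overlapped, at 0.685, 4.71 and 2.03 in sgCtrl and 4.24, 3.96 and 2.24 in sgPrdx2 livers, with liver 5.1 far below the rest. The ratio of Cyp7b1 to Cyp7a1, which sets the alternative beside the classic hydroxylase, overlapped too, at 0.405, 1.31 and 1.31 in sgCtrl and 0.615, 0.885 and 0.736 in sgPrdx2 livers. Ratios of Cyp27a1 to Cyp7a1 and to Cyp7b1 also overlapped between the groups. No other pairs were formed, and the share of all gene pairs that separate the groups was not counted.

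**Figure D2:**
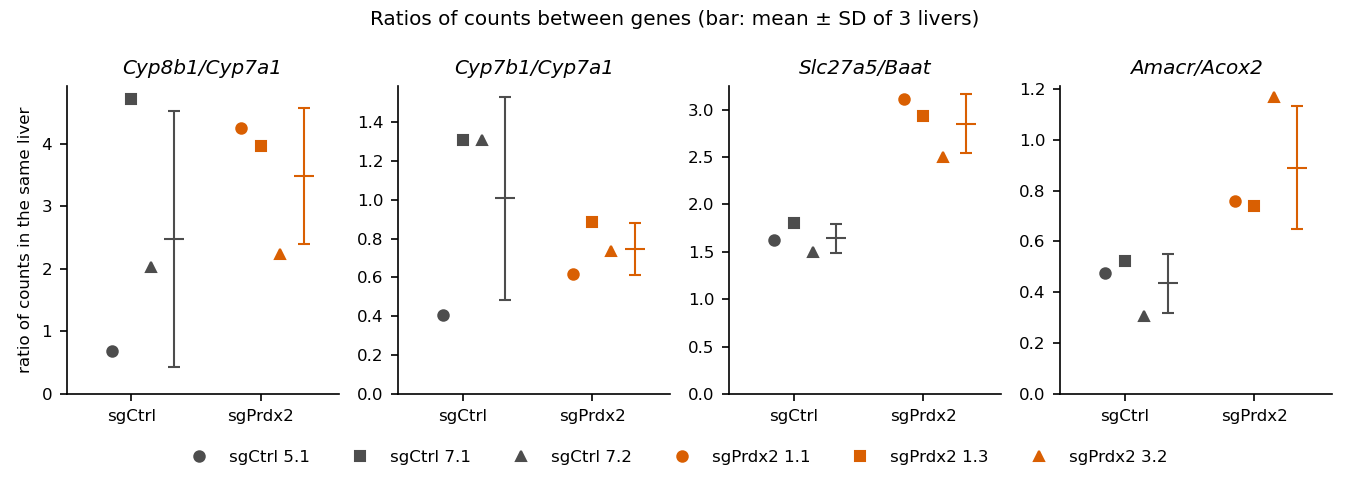
Ratio of the counts of 2 genes within each liver, with 1 panel per ratio; points are single livers and bars the mean ± SD of the 3 livers of a group. The groups separate for Slc27a5 to Baat and Amacr to Acox2 and overlap for Cyp8b1 to Cyp7a1 and Cyp7b1 to Cyp7a1.

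To compare levels between genes, CPM were divided by the exon length in kilobases. In sgCtrl livers the mean level per kilobase was highest for Cyp27a1 (101) and Slc27a5 (92.1), then Baat (69.9), Acox2 (57.9), Cyp8b1 (53.3), Amacr (34.2), Cyp7b1 (22.3), Akr1d1 (15.7), Cyp7a1 (13.4) and Hsd3b7 (3.10). Cyp27a1 and Slc27a5 did not differ beyond their spread, with ranges of 76.1 to 118 and 76.2 to 117, and the ranges of Acox2 (47.4 to 75.7) and Cyp8b1 (28.8 to 74.6) overlapped those of Baat. Akr1d1 (9.19 to 19.5) and Cyp7a1 (7.41 to 19.7) overlapped, and Cyp7b1 (15.4 to 32.8) overlapped both as well as Amacr (32.1 to 37.7). In sgPrdx2 livers Slc27a5 was first at 259 (228 to 308), above the highest Cyp27a1 liver at 211, and Cyp8b1 was the third at 126. Cyp7a1 at 17.5 and Hsd3b7 at 3.67 stayed the lowest. By coding length in place of exon length, Cyp7a1 (36.9) in sgCtrl livers came above Cyp7b1 (31.7), and Amacr (77.98) above Cyp8b1 (69.3), so that the order of these neighbours depends on the length used. By exon length, every liver of both groups had more RNA of Cyp27a1, Slc27a5, Baat, Acox2, Cyp8b1 and Amacr than of Cyp7a1. By coding length, Cyp8b1 was below Cyp7a1 in the sgCtrl liver with the lowest Cyp8b1 level.

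**Figure D3:**
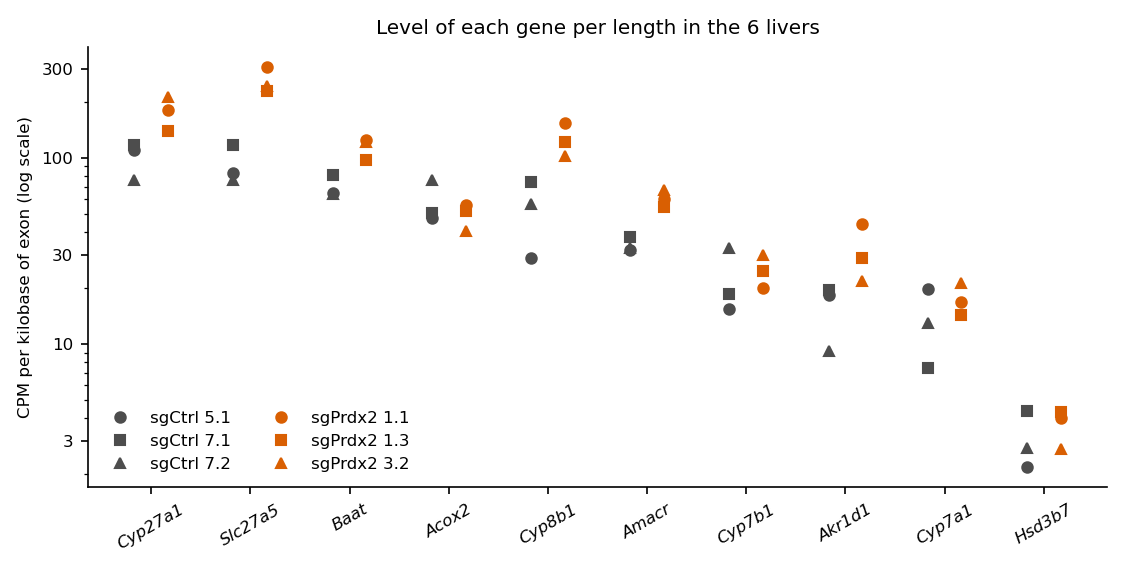
Level of each gene in CPM per kilobase of exon on a log axis, in the order of the sgCtrl means; points are single livers, gray for sgCtrl and orange for sgPrdx2. Cyp27a1 and Slc27a5 lie highest and Cyp7a1 and Hsd3b7 lowest in both groups.

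Since the 10 genes are expressed in hepatocytes, the counts were also scaled to the geometric mean of the hepatocyte markers in place of TMM. This shifted the all-gene median of the log2 fold changes to -0.87 and that of the 10 genes to -0.11. Slc27a5 remained higher, with a log2 fold change of 0.65 (edgeR adjusted p = 0.0203), where 0.335% of all genes were called higher. Cyp8b1 was at 0.44 (adjusted p = 0.175) and Akr1d1 at 0.16 (adjusted p = 0.675). Amacr (-0.04), Cyp27a1 (-0.08) and Baat (-0.15) lay near 0, differences smaller than the spread between livers (adjusted p of 0.847, 0.76 and 0.465). Cyp7b1 at -0.67 (adjusted p = 0.0315) and Acox2 at -1.06 (adjusted p = 0.00408) were called lower relative to the markers, as were 71% of all genes, and Cyp7b1 lay above the median of all genes, with Cyp7a1 at -0.53 (adjusted p = 0.175) and Hsd3b7 at -0.55 (adjusted p = 0.112). Scaling to 6 housekeeping genes placed the median of all genes at -0.38. The log2 fold changes of these genes under TMM were 0.45 for Atp5b, 0.65 for Cox8a, 0.68 for Ndufa2, 0.42 for Hint1, 0.26 for Bag6 and -0.07 for Hnrnpa2b1. Atp5b, Cox8a and Ndufa2 encode subunits of oxidative phosphorylation enzymes. The study reports an increase in oxidative phosphorylation among the top pathways of its knockout livers. The part of such an increase in the housekeeping scaling was not tested. Of the 6 housekeeping genes, 5 had log2 fold changes above 0 under TMM (median 0.43) and 0 were called by edgeR. Without overlap between the groups, 4 were higher (16.7% of all genes). At an unadjusted edgeR p under 0.05, 3 were higher (13% of all genes), and DESeq2 called 3 higher (7.89% of all genes). The housekeeping scaling placed Slc27a5 at 1.12 (edgeR adjusted p = 0.049) and Amacr at 0.44 (edgeR adjusted p = 0.0961). The signs of Cyp7a1, Cyp7b1 and Hsd3b7 thus differed between TMM and both other scalings, and those of Amacr, Cyp27a1 and Baat between TMM and the hepatocyte markers. Slc27a5, Cyp8b1 and Akr1d1 stayed above 0, and Acox2 below 0, under all 3.

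**Figure D4:**
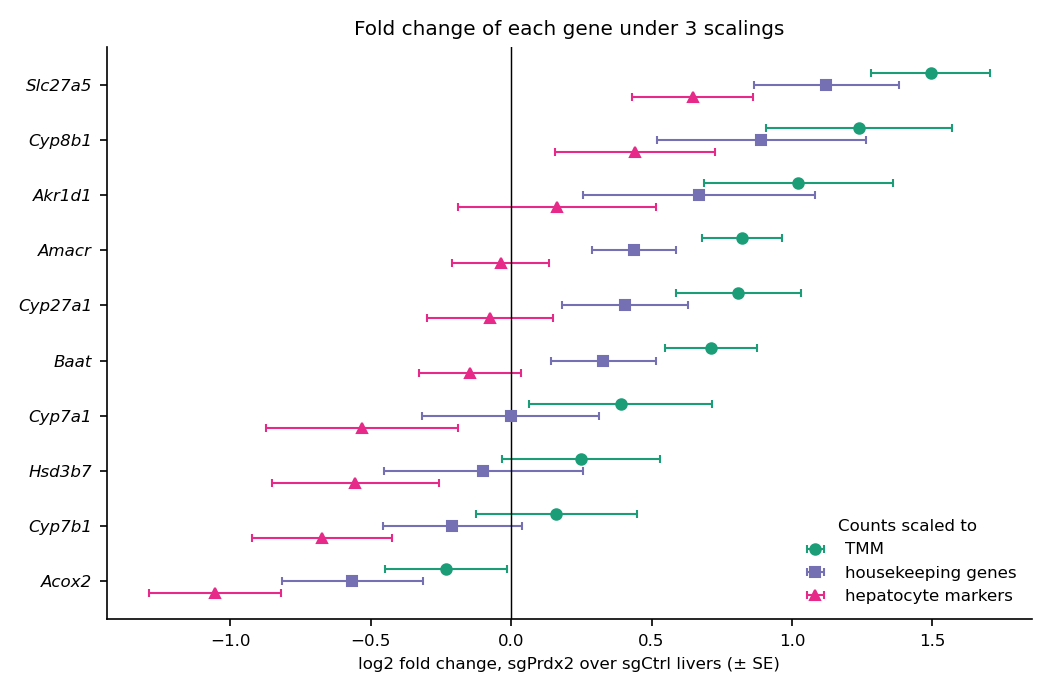
Log2 fold change of sgPrdx2 over sgCtrl livers for the 10 genes, with bars of ± 1 SE, from counts scaled by TMM, to the housekeeping genes or to the hepatocyte markers; the vertical line marks no change. Slc27a5 lies to the right of 0 under all 3 scalings, at 1.49, 1.12 and 0.65, and Acox2 to the left, at -0.23, -0.57 and -1.06.

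The rest of the synthesis pathway was described by a list of 15 other enzymes and carriers, all tested. Of these, 13 had a log2 fold change above 0 (median 0.34, range -0.83 to 1.18), beside 8230 of all 17032 genes. By edgeR 1 was called higher (1.79% of all genes) and 0 lower (1.54%). At an unadjusted edgeR p under 0.05, 5 were higher (13% of all genes) and 0 lower (11.9%). DESeq2 called 5 higher (7.89%) and 0 lower (5.9%). The gene called by edgeR was Fdx1, a ferredoxin that passes electrons to mitochondrial P450 enzymes such as CYP27A1. It was at 45.0, 49.9 and 47.4 CPM in sgCtrl and 81.0, 78.2 and 103 CPM in sgPrdx2 livers (log2 fold change 0.88, SE 0.15, edgeR adjusted p = 0.0373). Its call was lost in 5 of the 6 fits without 1 liver (adjusted p from 0.0531 without sgCtrl 7.1 to 0.146 without sgCtrl 7.2) and held without sgPrdx2 3.2, and relative to the hepatocyte markers it was at 0.02 (adjusted p = 0.93) and relative to the housekeeping genes at 0.49 (adjusted p = 0.0623). Its reductase Fdxr, which feeds electrons to FDX1, was at 24.6 to 32.2 CPM in sgCtrl and 42.2 to 61.8 CPM in sgPrdx2 livers (0.76, edgeR adjusted p = 0.0635). Like these, 5 more genes had no overlap and higher levels in sgPrdx2 livers, making 7 of 15 beside 16.7% of all genes. Cyp46a1, a cholesterol hydroxylase best known in brain, had a log2 fold change of 1.18 (edgeR adjusted p = 0.0761) but only 2.07 to 7.66 CPM. Cyp2a12 and Cyp2c70, rodent enzymes that hydroxylate bile acids, had 0.67 (adjusted p = 0.0667) and 0.50 (adjusted p = 0.217). Slc27a2, an acyl-CoA synthetase, had 0.57 (adjusted p = 0.0666) and Acot8, a peroxisomal thioesterase, 0.29 (adjusted p = 0.26). The 2 genes under 0, named after their values were seen, were Ch25h, the cholesterol hydroxylase of many immune cells, at -0.83 (adjusted p = 0.203), and Cyp39a1, an oxysterol hydroxylase, at -0.48 (adjusted p = 0.227), both with overlap.

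Of 12 regulators, 11 had a log2 fold change above 0 (median 0.28), beside 8230 of all 17032 genes. By edgeR 0 were called in either direction (1.79% of all genes higher and 1.54% lower). At an unadjusted edgeR p under 0.05, 4 were higher (13% of all genes) and 0 lower (11.9%). DESeq2 called 3 higher (7.89% of all genes) and 0 lower (5.9%). Nr1h4, the gene of the bile acid receptor FXR, was at 91.1, 92.6 and 79.0 CPM in sgCtrl and 143, 113 and 138 CPM in sgPrdx2 livers, with no overlap (0.59, SE 0.15, edgeR adjusted p = 0.0668). Nr0b2 encodes SHP, which FXR induces and which represses Cyp7a1 and Cyp8b1. It was at 14.0, 54.3 and 24.1 CPM in sgCtrl and 80.8, 48.6 and 73.4 CPM in sgPrdx2 livers (1.13, SE 0.45, edgeR adjusted p = 0.172). The groups of Nr0b2 overlapped through sgCtrl liver 7.1, which had the lowest Cyp7a1 but the highest Cyp8b1 level of its group. Whether Nr0b2 bears on the levels of these 2 genes was not tested. The log2 fold change of Nr0b2 ranged from 0.79 without sgCtrl 5.1 (edgeR adjusted p = 0.323) to 1.82 without sgCtrl 7.1 (edgeR adjusted p = 0.0414). The latter was the only 1 of the 6 fits without 1 liver in which Nr0b2 was called. Fgfr4, the hepatocyte receptor for the gut hormone FGF15, had 0.51 (adjusted p = 0.115) with no overlap, and its partner Klb had 0.22 (adjusted p = 0.439) with overlap. Hnf4a, whose protein binds the letters found before Cyp8b1, had 0.30 (adjusted p = 0.229), and Nr1h3, the oxysterol receptor LXR alpha, had 0.46 (adjusted p = 0.135), both without overlap. Relative to the hepatocyte markers, Nr1h4, Fgfr4, Klb, Hnf4a and Nr1h3 had log2 fold changes under 0, from -0.28 to -0.62, and Nr0b2 was at 0.32 (adjusted p = 0.433).

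**Figure D5:**
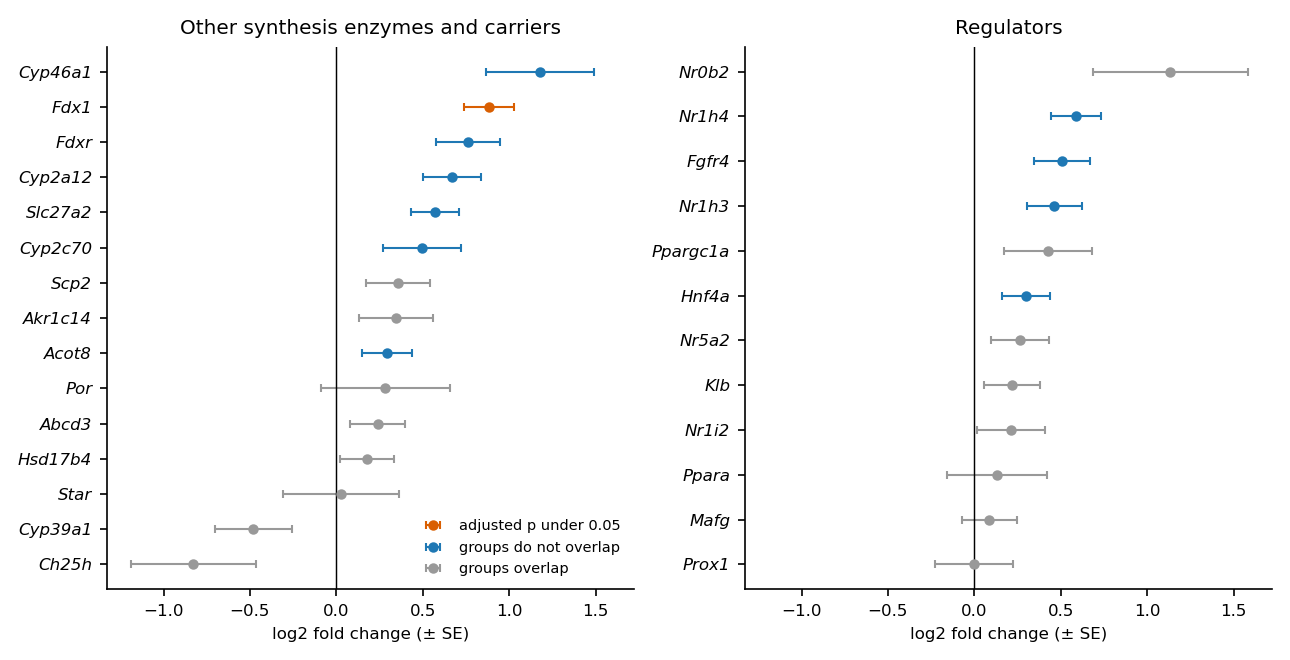
Log2 fold change of the 15 other enzymes and carriers and of the 12 regulators, with bars of ± 1 SE; orange marks an edgeR adjusted p under 0.05, blue groups that do not overlap and gray groups that do. Fdx1 at 0.88 is the only orange point, and 13 of the 15 and 11 of the 12 genes lie to the right of 0.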

How the data were processed

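The authors deposited counts of reads per gene for each of the 6 livers, as whole numbers without normalization, for 52459 genes. The submitters' notes name HISAT2, HTSeq, DESeq2 and the genome build GRCm38, while versions, annotation and strand setting are not given in the sources used here. A table of the authors' own DESeq2 comparison (fold changes and p-values) was not used. Labels gave the group of each liver and named a separate mouse for each.

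Counts were analyzed in R 4.3.3 with edgeR 4.0.16 (filterByExpr with a minimum count of 10, TMM, quasi-likelihood test, Benjamini-Hochberg adjustment over 17032 genes). SE was obtained by dividing each log2 fold change by the root of its F value. TMM takes most genes as unchanged, so that changes are relative to them. Total counts of 37462102 to 56865293 per liver make counting error small for these genes. The biological coefficient of variation was 0.213. The fits were tested on simulated data. Alternatives were RLE, upper-quartile, library-total, housekeeping and hepatocyte-marker scaling, other filters and thresholds, DESeq2 1.42.0, and leaving out each liver. Exon lengths and loci came from GENCODE for GRCm38, which need not be the authors' annotation.

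The genes and lists were chosen with earlier results of these data known. Named were the 10 genes, called or non-overlapping genes of the other pathway lists, Nr1h4, Nr0b2, Fgfr4 and Klb, called markers, and the 3 genes most correlated with Cyp7a1, Cyp7b1 and Slc27a5. The clock genes beside liver 5.1 were chosen after their values were seen.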

Additional observations from a re-analysis of the deposited data

How the results depend on the processing

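No paired analysis was possible because the livers of the 2 groups share no replicate number. Over 14 alternatives for each of the 10 genes, 109 values kept their direction and side of the threshold, 14 changed sign, 9 lost and 8 gained significance, and the cause was not tested. The number of the 10 genes called higher, 2 here, was 1 with housekeeping scaling, 1 with hepatocyte-marker scaling, 5 without a filter, 6 with DESeq2, 0 at an adjusted p under 0.01, 5 at an adjusted p under 0.1, and 0 to 2 when 1 liver was left out. The number called lower was 2 with hepatocyte-marker scaling. Of the 27 other pathway genes, 1 was called here (higher), 2 with library totals alone (1 higher and 1 lower), 0 with housekeeping scaling, 12 with hepatocyte-marker scaling (all lower, as were 71% of all genes), 3 without a filter and 8 with DESeq2 (all higher) and 0 to 1 when 1 liver was left out. Across all genes, 305 higher and 262 lower calls became 70 and 919 with housekeeping scaling, 57 and 12089 with hepatocyte-marker scaling, 644 and 484 without a filter, 1212 and 906 with DESeq2, and 0 to 324 and 0 to 295 when 1 liver was left out, with 3041 lower with library totals alone.

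Log2 fold changes that changed sign with library totals alone were -0.0057 for Cyp7a1, -0.10 for Hsd3b7, -0.21 for Cyp7b1, -0.090 for Acot8, -0.063 for Hnf4a and -0.14 for Klb. With housekeeping scaling they were -0.0013 for Cyp7a1, -0.10 for Hsd3b7, -0.21 for Cyp7b1, -0.10 for Acot8, -0.054 for Hnf4a and -0.12 for Klb. With hepatocyte-marker scaling they were -0.53 for Cyp7a1, -0.55 for Hsd3b7, -0.077 for Cyp27a1, -0.67 for Cyp7b1, -0.037 for Amacr, -0.15 for Baat, -0.58 for Acot8, -0.29 for Slc27a2, -0.34 for Cyp2c70, -0.20 for Cyp2a12, -0.10 for Fdxr, -0.28 for Nr1h4, -0.54 for Hnf4a, -0.32 for Fgfr4, -0.40 for Nr1h3 and -0.62 for Klb. When 1 liver was left out, Cyp7b1 ranged from -0.048 to 0.55 and Acox2 from -0.36 to 0.0076. The log2 ratio of the summed hepatocyte markers was 0.94 here, 0.56 with library totals alone and 0.55 with housekeeping scaling. The ratio of the highest to the lowest gene per length was taken in each sgCtrl liver. Its mean over these livers was 35.0 by exon length and 20.6 by coding length. The lowest gene was Hsd3b7, whose level is uncertain.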

Other observations

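The genes whose log2 CPM over the 6 livers followed 3 of the genes most closely were looked up among all genes tested, as a description without a test. With Cyp7a1, the highest Pearson correlations were 0.981 for Sag, 0.980 for AC117232.5 and 0.973 for 6230400D17Rik, none of them called. With Cyp7b1, they were 0.990 for AC145731.3, 0.982 for Mrps36, which encodes a mitochondrial protein, and 0.979 for Gnrh1, none of them called. With Slc27a5, they were 0.998 for Rgl3, 0.997 for Car5a, the mitochondrial carbonic anhydrase of liver, and 0.997 for mt-Nd1, a subunit of respiratory complex I encoded in mitochondrial DNA. Rgl3 had a log2 fold change of 0.66 (edgeR adjusted p = 0.0394), Car5a of 1.47 (edgeR adjusted p = 0.0355) and mt-Nd1 of 0.64 (edgeR adjusted p = 0.0722). The 6 livers of these correlations share the difference between the groups, which by itself gives high values for any genes that separate them, as Slc27a5 does.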
